A study of Mus musculus with 12 samples.

Results

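The genes described here are 32 genes known from the visceral endoderm, the outer endoderm layer of the early mouse embryo that later lines the yolk sac, and from the liver bud. They were taken as a list of gene symbols, and a gene counted as measured when a non-control probe carried a transcript accession of it. Of the 32 genes, 31 had such a probe (39 probes, 8 genes with 2 probes each), out of 19747 named genes on the array. No probe was tied to Apoc2 by accession, so its level is not analysed here. The signal was high enough to be tested for 28 of the members, out of 22568 genes or identifiers tested in all.

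Chd7 is a chromatin remodeller, and the study looked for genes whose expression requires it at the stage of neural crest migration. It measured total RNA of whole female mouse embryos at embryonic day 9.5 on 12 Agilent arrays with 1 dye. The embryos carried 0, 1 or 2 copies of the whirligig allele of Chd7: 4 were wild type (Chd7+/+), 4 heterozygous (Chd7Whi/+) and 4 homozygous (Chd7Whi/Whi). All came from matings of heterozygous parents on a mixed C3HeB/FeJ background and the labels name no treatment. Within a genotype, the labels describe the 4 samples as separate biological replicates. Embryos had been separated during dissection, per the labels' protocols, from their yolk sacs, which at this stage hold most of the visceral endoderm. No probe was tied to Chd7 by accession, and its level, which would check the labels, is not analysed here.

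Visceral endoderm takes up nutrients from maternal fluid with the receptor pair cubilin and amnionless, and it secretes the proteins that the fetal and adult liver will later make: alpha-fetoprotein, transthyretin, transferrin and apolipoproteins. The liver bud grows out of the foregut endoderm at about the stage studied and begins to express the same secreted proteins. In both tissues Hnf4a and the Foxa factors are regulators of these genes.

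Values are given as scaled log2 signal, which is log2 of a spot's processed signal after subtraction of the 75th percentile found on its array, so that 0 is the level of that percentile and 1 unit is a factor of 2. They compare arrays for 1 probe and do not rank different genes. The 75th percentile was 1095 to 1721 across arrays, 70.0% to 76.4% of spots were well above background, and no spot was saturated. Heterozygous replicate 1 stood apart in a list of 6 heart muscle genes, whose mean relative to wild type was -3.64 log2 units on that array and between -0.39 and 0.59 on the other 11. Across all genes tested, 305 of 22568 differed between homozygous and wild-type embryos in limma at an adjusted p under 0.05 (110 higher and 195 lower, and 9 higher and 82 lower with normexp background correction). The same fit called 2 genes for heterozygous against wild type and 3 for homozygous against heterozygous.

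None of the 28 members tested passed the test between genotypes, with wide intervals around most differences. Most of them differed widely between embryos of the same genotype and varied together across the 12 arrays. On 2 arrays of homozygous embryos (replicates 1 and 2) and 1 of a wild-type embryo (replicate 2) they were high, and on the other 2 homozygous arrays and wild-type replicates 1 and 4 they were low. The 4 heterozygous embryos and wild-type replicate 3 lay between. Albumin, the classical marker of liver cells, was not above background on 10 of 12 arrays.

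Promoter stretches of 6 members are shown as examples of matches to binding motifs of known endoderm regulators, chosen to include members with a wide and a narrow range across the arrays; other members with a match are not shown. RefSeq promoter windows of assembly GRCm38.p6, 250 bases before to 50 after each start, were given for 28 of the 32 members (34 windows), not for Soat2, Trf, Ttpa and Ttr. They were searched on both strands for 4 short motifs: the Foxa motif in its form TGTTTAC and in its other form TATTTAC, the HNF4 motif CAAAGTC and the GATA motif AGATAA. No 2 matches in members overlapped. In the stretches printed here, 150 bases ending at the base before the start and written 5′ to 3′ on the gene's strand, the capitals mark the match, read on either strand: TGTTTAC in Apoa2, Apoh and Foxa1, the other form of the Foxa motif in Fgb and Spp2, and the GATA motif in Hnf4a. The stretches are those of Apoa2 (plus strand, chr1:171224904-171225053), Apoh (plus strand, chr11:108395147-108395296), Fgb (minus strand, chr3:83049864-83050013), Spp2 (plus strand, chr1:88406860-88407009), Foxa1 (minus strand, chr12:57546112-57546261) and a start of Hnf4a on the plus strand, chr2:163506707-163506856.
Apoa2: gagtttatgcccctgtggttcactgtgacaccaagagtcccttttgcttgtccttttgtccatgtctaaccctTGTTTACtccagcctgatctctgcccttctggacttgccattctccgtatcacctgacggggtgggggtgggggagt
Apoh: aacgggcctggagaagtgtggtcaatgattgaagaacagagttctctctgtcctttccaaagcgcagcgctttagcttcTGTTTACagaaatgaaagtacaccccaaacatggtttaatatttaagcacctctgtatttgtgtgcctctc
Fgb: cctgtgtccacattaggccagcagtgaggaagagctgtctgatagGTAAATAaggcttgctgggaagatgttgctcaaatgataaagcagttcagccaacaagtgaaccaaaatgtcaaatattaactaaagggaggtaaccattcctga
Spp2: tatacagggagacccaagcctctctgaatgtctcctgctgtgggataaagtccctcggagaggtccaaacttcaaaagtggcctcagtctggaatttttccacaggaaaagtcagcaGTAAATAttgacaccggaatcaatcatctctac
Foxa1: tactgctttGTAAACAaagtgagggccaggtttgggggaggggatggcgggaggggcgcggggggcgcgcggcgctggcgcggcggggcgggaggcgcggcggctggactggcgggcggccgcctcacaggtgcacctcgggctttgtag
Hnf4a: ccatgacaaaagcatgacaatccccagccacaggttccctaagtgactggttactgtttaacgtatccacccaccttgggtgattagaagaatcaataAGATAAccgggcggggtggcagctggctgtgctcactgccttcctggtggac

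The letters TGTTTAC stood in a window of 4 of the 28 members (14.3%), against 4.05% of 27025 genes with a window. TATTTAC stood in 3 members (against 3.51% of genes), AGATAA in 5 (17.9%, against 12.7%) and CAAAGTC in 2 (7.14%, against 5.0%). Of these members, 20 varied with the other members across the arrays (r above 0.75, described below). Among those 20, TGTTTAC stood in 2, TATTTAC in 3, AGATAA in 3 and CAAAGTC in 0. These matches are a description of letters and not of bound sites. The sequences shown come from members that behaved differently. Apoa2, Fgb, Spp2 and Hnf4a varied across the arrays with the other members. Foxa1 ranged over 0.99 log2 units, and Apoh was not above background on any array.

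Among the carrier and plasma proteins, 8 of 10 members were tested and none passed. Alpha-fetoprotein (Afp), the main plasma protein of the embryo, had a scaled log2 signal of 1.26, 3.49, 2.41 and 0.76 in the 4 wild-type embryos, 2.05, 3.04, 2.25 and 3.13 in the heterozygous embryos, and 4.24, 3.24, 0.12 and 1.28 in the homozygous embryos. The lowest and the highest of the 12 values were both from homozygous embryos, 17.4-fold apart, and the 3 groups overlapped. Afp was 0.24 ± 0.82 (SE) log2 units higher in homozygous than in wild-type embryos (adjusted p = 0.909, limma), a difference smaller than the SD within either genotype (1.22 and 1.86, n = 4 each). In these samples of whole embryos, fewer cells of a type and less RNA per cell cannot be told apart.

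Retinol-binding protein (Rbp4), which carries vitamin A in plasma, gave 1.84, 3.81, 3.11 and 1.82 in wild type, 2.87, 3.02, 3.37 and 3.92 in heterozygotes and 5.18, 4.22, 1.27 and 2.33 in homozygotes. Transthyretin (Ttr), its partner and a carrier of thyroid hormone, gave -1.03, 1.80, 0.67 and -1.0 in wild type, 0.23, 0.98, 1.29 and 2.12 in heterozygotes and 3.56, 2.22, -0.80 and -0.12 in homozygotes. Both genes were highest in homozygous replicate 1, and the order of the arrays was close to that of Afp. The difference of homozygous from wild type was 0.60 ± 0.75 for Rbp4 (adjusted p = 0.709) and 1.11 ± 0.92 for Ttr (adjusted p = 0.564), both from limma.

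Transferrin (Trf), the iron carrier, ran from -2.18 in homozygous replicate 3 to 1.28 in homozygous replicate 1, an 11.0-fold range, and Spp2, a secreted phosphoprotein, from -5.46 to -0.46 on the same 2 arrays, a 32-fold range. The remaining tested carriers varied far less. Ambp, the precursor of alpha-1-microglobulin and bikunin, ranged over 1.38 log2 units, and Ttpa, the tocopherol transfer protein, over 1.16.

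The vitamin D-binding protein Gc had values of -4.63, -4.57, -5.66 and -4.69 in wild type, -4.93, -4.66, -4.72 and -4.57 in heterozygotes, and -4.70, -4.43 and -5.45 in homozygotes, where the spot of replicate 4 was marked as an outlier and left out (n = 3). Wild-type replicate 3 and homozygous replicate 3 were low, and the other 9 arrays lay within -4.93 to -4.43. Its difference of homozygous from wild type was 0.03 ± 0.29 (adjusted p = 0.972, limma).

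Albumin (Alb), which neighbours Afp on chromosome 5 with 0 protein-coding genes between them, was well above background on wild-type replicate 1 (-6.72) and heterozygous replicate 4 (-5.05) and on no other array. Afp was well above background on 12 of 12. Ahsg, the plasma glycoprotein fetuin-A, was well above background on 9 of 12 arrays, at -6.76, -6.15 and -6.07 in wild-type replicates 1, 3 and 4, at -5.84, -6.05 and -4.91 in heterozygous replicates 1, 2 and 4, and at -5.83, -5.60 and -5.67 in homozygous replicates 1, 2 and 4. It was not well above background in wild-type replicate 2 and heterozygous replicate 3, and its spot in homozygous replicate 3 was marked as an outlier, so the gene was not tested.

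Of the 9 apolipoproteins and proteins of lipoprotein assembly, 7 were tested, and most of them ranged widely across the embryos. Apolipoprotein A-I (Apoa1), the main protein of high-density lipoprotein, had a scaled log2 signal of -6.31, -1.39, -2.84 and -6.30 in wild type, -3.03, -2.62, -2.31 and -1.32 in heterozygotes, and 0.17, -1.14, -7.10 and -5.18 in homozygotes. The probe was not well above background in homozygous replicate 3. Taking that array's lowest signal above background in its place, the 12 arrays spanned at least 6.74 log2 units, or at least 106.7-fold. Wild-type replicates 1 and 4 were as low as the 2 low homozygous arrays, and the difference of homozygous from wild type was 0.90 ± 1.53 (adjusted p = 0.795, limma).

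Apolipoprotein M (Apom), a carrier of sphingosine 1-phosphate, followed the same order, with -2.51, 1.01, -0.69 and -2.80 in wild type, -0.72, -0.01, 0.16 and 0.80 in heterozygotes and 2.29, 1.22, -2.50 and -1.88 in homozygotes. The homozygous mean was 1.03 ± 1.07 above wild type (adjusted p = 0.652, limma). Apob, the structural protein of chylomicrons and low-density lipoprotein, spanned 5.48 log2 units, or 44.7-fold, with -4.43 in homozygous replicate 3 and 1.05 in homozygous replicate 1. Its other probe spanned 5.54.

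Apolipoprotein A-II (Apoa2), also of high-density lipoprotein, came closest to a difference between genotypes. Its values were 0.46, 0.82, 0.37 and -0.23 in wild type, 1.0, 0.79, 0.82 and 1.12 in heterozygotes, and 1.81, 1.49, 0.32 and 0.63 in homozygotes. Of the heterozygous embryos, 3 were at or above the highest wild-type value and 1 just below it, and the homozygous embryos overlapped both groups. The differences from wild type were 0.71 ± 0.31 in homozygotes (95% interval 0.04 to 1.38, unadjusted p = 0.0402, adjusted p = 0.275) and 0.58 ± 0.31 in heterozygotes (adjusted p = 0.372), both from limma. The other probe of Apoa2 spanned 6.22 log2 units against 2.05 for this one, with differences from wild type of 0.59 in homozygotes and 0.69 in heterozygotes. In a limma fit of every probe, the homozygous difference of that other probe had an adjusted p of 0.8285.

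The cholesterol esterification enzyme Soat2 ranged 17.3-fold, the microsomal transfer protein Mttp, which loads lipid onto apolipoprotein B, 3.46-fold, and Apoa4 at least 11.3-fold, its probe not being well above background in homozygous replicate 3. Apoh, beta-2-glycoprotein I, was well above background on 0 of 12 arrays. Apoa4 lies near Apoa1 on chromosome 9, with 1 protein-coding gene between them.

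Of the 4 coagulation genes, all were tested. The fibrinogen gamma chain (Fgg) gave -4.62, -2.26, -3.37 and -4.82 in wild type, -3.76, -2.70, -3.52 and -3.26 in heterozygotes and -0.92, -2.01, -5.57 and -4.19 in homozygotes, a 25.0-fold range. The beta chain (Fgb) gave -3.04, -1.77, -2.93 and -3.48, then -3.19, -2.21, -2.22 and -1.77, then -0.48, -1.75, -3.89 and -2.70 in the same order of genotypes. These 2 chains, together with the alpha chain, form the clotting protein fibrinogen, and the 3 genes lie side by side on chromosome 3.

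The alpha chain (Fga) was lower in heterozygous replicate 2 (-5.93) than in the other heterozygotes (-4.63, -4.72 and -4.51). Wild-type embryos had -5.42, -4.44, -5.15 and -6.05, and homozygotes had -3.40, -4.01, -5.61 and -6.13. Prothrombin (F2), the precursor of thrombin, ranged from -6.00 in wild-type replicate 4 to -2.86 in homozygous replicate 1. The differences of homozygous from wild type were between 0.48 and 0.60 for the 4 genes, and their smallest adjusted p was 0.627 (F2, limma).

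The uptake, membrane and brush border genes included another member with a very wide range. Slc2a2, the glucose transporter GLUT2 of liver and yolk sac endoderm, gave -7.24, -2.03, -4.33 and -7.94 in wild type, -4.22, -3.29, -3.58 and -3.62 in heterozygotes and -0.71, -2.24, -7.42 and -6.60 in homozygotes. It was not well above background in wild-type replicates 1 and 4 and homozygous replicate 3, and against those arrays' lowest signals above background it spanned at least 6.50 log2 units, or at least 90.8-fold. The heterozygous embryos spread over less than 1 log2 unit, within the range of both other genotypes. Only in heterozygotes was Slc2a2 well above background throughout, and there its mean was highest (-3.68, against -5.38 in wild type and -4.24 in homozygotes). It thus entered the test through the group where it was high. Its differences between genotypes are therefore not read as a result.

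Cubilin (Cubn), the receptor that binds intrinsic factor, albumin and apolipoprotein A-I, gave -2.37, 1.42, -0.27 and -2.50 in wild type, -0.69, 0.47, 0.40 and 0.73 in heterozygotes and 2.44, 1.09, -3.07 and -2.65 in homozygotes. Amnionless (Amn), which brings cubilin to the cell surface, gave -4.52, -1.19, -2.70 and -4.58, then -3.19, -2.30, -2.07 and -1.40, then -0.01, -1.17, -4.27 and -4.27. The receptor and its partner were high and low on the same arrays, and their differences of homozygous from wild type were 0.38 ± 1.21 (adjusted p = 0.90) and 0.82 ± 1.01 (adjusted p = 0.708) in limma.

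Villin (Vil1), the actin bundler of microvilli, ranged over 2.93 log2 units with the same highest array, homozygous replicate 1. Dab2, an endocytic adaptor for cubilin and megalin that many other cells express, ranged over 1.33 log2 units. That was less than in most members, though above the median of 0.78 over all genes tested. Its values were -0.32, 0.17, -0.40 and -0.36 in wild type, -0.40, -0.01, -0.34 and -0.34 in heterozygotes and 0.84, 0.21, -0.20 and -0.49 in homozygotes, with 1 embryo of each of the first 2 genotypes above the other 3. Dab2 was 0.32 ± 0.24 higher in homozygotes than in wild type (adjusted p = 0.530, limma).

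Of the 4 transcription factors, some followed the secreted proteins and others did not. Hnf4a, a nuclear receptor needed for visceral endoderm function and liver development, gave -2.11, -0.59, -1.88 and -3.44 in wild type, -1.93, -1.45, -1.43 and -1.56 in heterozygotes and 0.44, -0.74, -3.20 and -3.13 in homozygotes, a 14.7-fold range. Its difference of homozygous from wild type was 0.35 ± 0.78 (adjusted p = 0.852, limma). Foxa3 ran from -5.74 in homozygous replicate 3 to -4.09 in homozygous replicate 1, and its 4 wild-type values of -5.42, -4.77, -5.63 and -5.26 lay within that range.

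Foxa2, a pioneer factor of gut endoderm that floor plate and notochord also express, was 1.01, 0.82, 0.23 and 0.69 in wild type, 0.62, 0.80, 0.34 and 0.51 in heterozygotes and 0.80, 0.37, 0.54 and 0.55 in homozygotes. Foxa1, its close relative, was 0.59, 0.33, -0.04 and 0.52 in wild type, 0.06, -0.05, 0.31 and -0.09 in heterozygotes and 0.56, 0.05, -0.14 and -0.39 in homozygotes. Neither ranged over more than 1 log2 unit in the 12 embryos, and the differences of homozygous from wild type were -0.12 ± 0.16 for Foxa2 (adjusted p = 0.728) and -0.33 ± 0.20 for Foxa1 (adjusted p = 0.411) in limma.

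**Figure D1:**
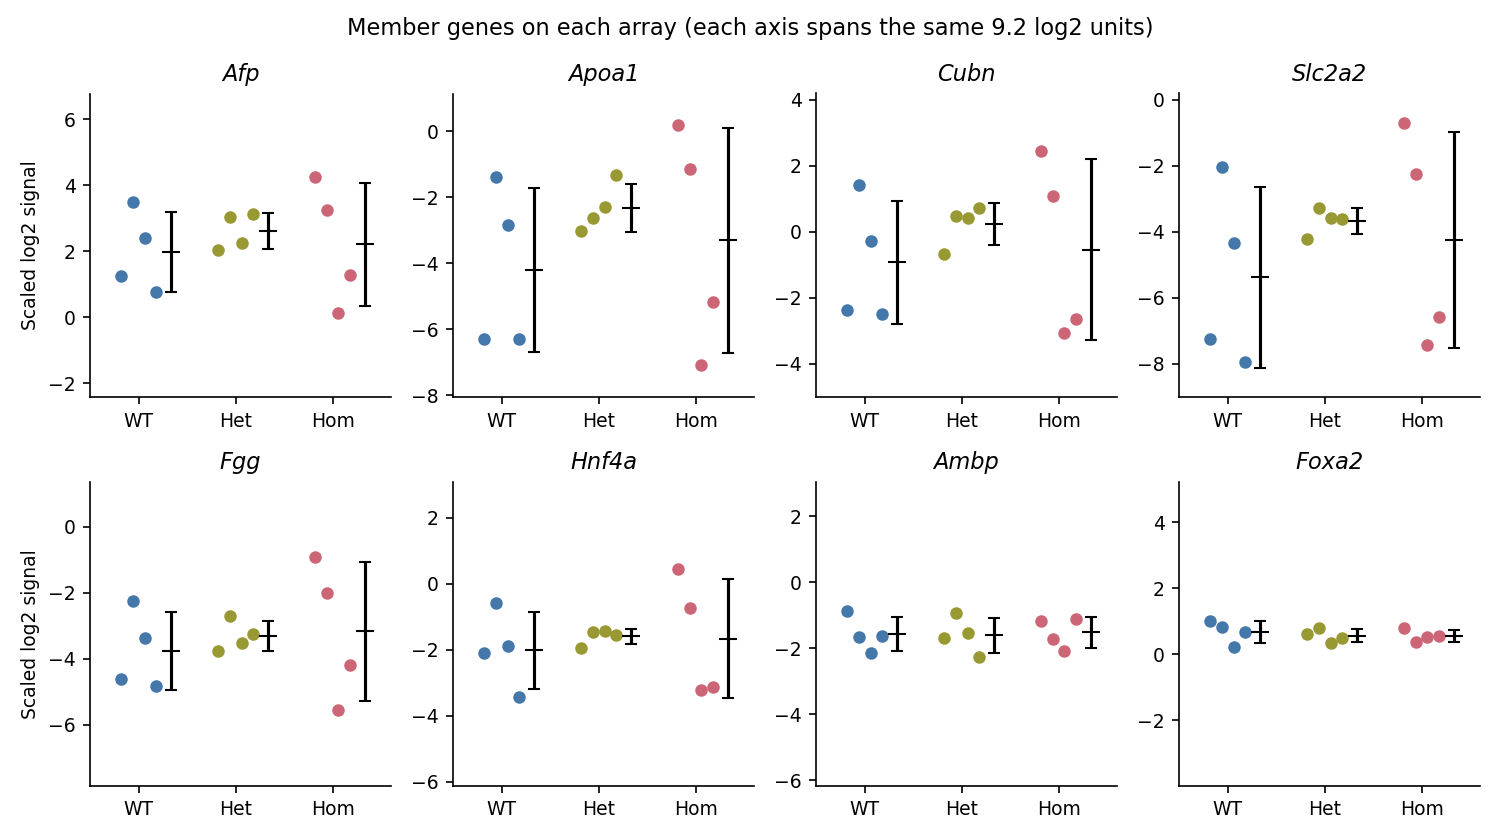
Scaled log2 signal of 8 members in each of the 12 embryos (points, in replicate order from left to right) by genotype (WT, wild type; Het, heterozygous; Hom, homozygous), with the mean and SD of 4 embryos in black. Apoa1, Cubn and Slc2a2 spread over several log2 units within wild-type and homozygous embryos and less among heterozygotes, while Foxa2 stays within 0.77 log2 units and Ambp within 1.38.

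For homozygous against wild type, 0 of 28 members passed an adjusted p of 0.05 in limma, where 1.35% of all genes tested did, and 1 member (Apoa2) had an unadjusted p under 0.05, against 17.0% of all genes. In no member did the arrays of the 2 genotypes separate, against 14.1% of all genes. The fitted differences were positive for 25 members and negative for 3, Foxa1, Foxa2 and Ttpa, with a median of 0.44 beside 0.02 over all genes tested. They ranged from -0.36 (Ttpa) to 1.14 (Slc2a2), and the 95% intervals reached a median of 1.58 log2 units to either side. Slc2a2 has 3 arrays not well above background. With normexp background correction it was at 0.66, below Ttr at 1.13 and Apom at 1.07. Because it entered the test through heterozygotes alone, its place at the top is not read as a result. It stays in the counts and medians of each comparison.

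That median turned to -0.06 without homozygous replicate 1, was 0.21 without homozygous replicate 2 and 0.98 without homozygous replicate 3. It was 0.23 without wild-type replicate 4 and 0.28 without wild-type replicate 1. By role it was 0.71 for the 7 apolipoprotein and lipoprotein genes, 0.59 for the 4 coagulation genes, 0.41 for the 8 carriers, 0.40 for the 5 uptake and membrane genes and 0.11 for the 4 transcription factors.

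For heterozygous against wild type, 0 of 28 members passed in limma, where 0.00886% of all genes did, and none had an unadjusted p under 0.05, against 15.4% of all genes. No member separated the 2 genotypes, against 6.66% of all genes. Differences were positive for 23 members and negative for 5, with a median of 0.47 beside 0.04 over all genes, and the highest was 1.89 for Apoa1. With normexp background correction Apoa1 was at 0.98, below Apom (1.26) and Cubn (1.13). Without heterozygous replicate 1 the median was 0.58, and it ran from 0.24 without wild-type replicate 4 to 0.84 without wild-type replicate 2.

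For homozygous against heterozygous, 0 of 28 members passed in limma, where 0.0133% of all genes did, and none had an unadjusted p under 0.05, against 6.0% of all genes. No member separated the 2 genotypes, against 2.98% of all genes. Differences were positive for 11 members and negative for 17, with a median of -0.06 beside -0.03 over all genes, and the smallest adjusted p was 0.911 (Dab2). The 3 comparisons share their arrays and are not independent of each other. The 95% interval held both a decrease and an increase of 1 log2 unit for 13 of 28 members against wild type in homozygotes, 13 in heterozygotes, and 19 between homozygotes and heterozygotes, so the absence of calls does not show that the genotypes are alike.

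**Figure D2:**
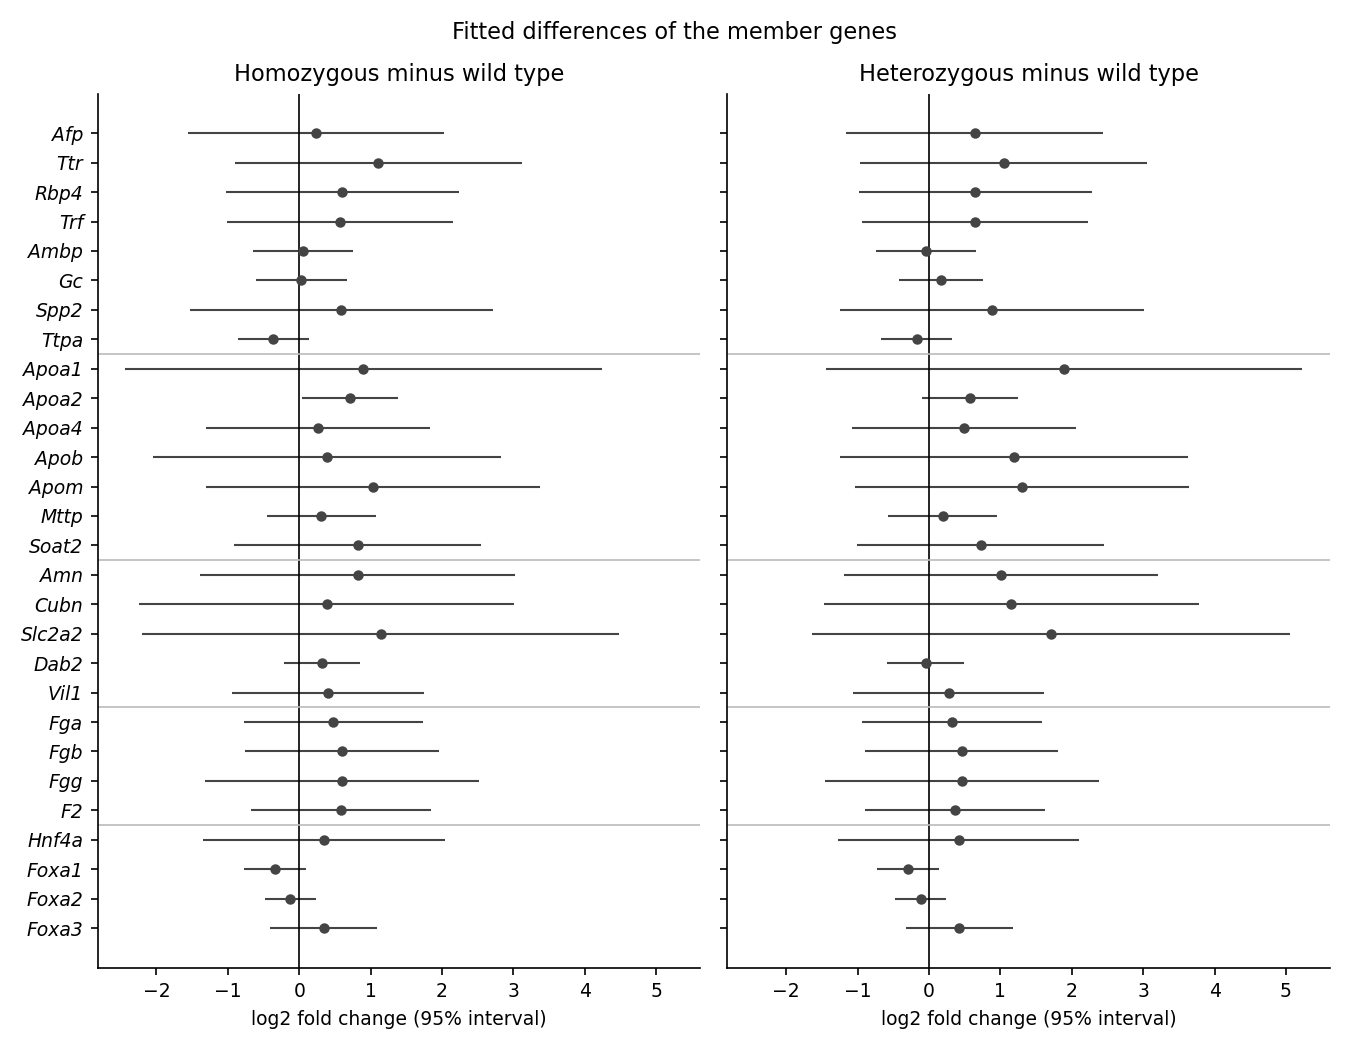
Fitted log2 fold change (point) and 95% interval (line) of the 28 members tested, for homozygous minus wild type on the left and heterozygous minus wild type on the right, with grey lines between role groups. All intervals include 0 except that of Apoa2 on the left, which runs from 0.04 to 1.38 before adjustment for the number of genes.

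The members varied widely between embryos of 1 genotype. The median member had an SD of 0.90 log2 units within wild type, 0.46 within heterozygotes and 1.72 within homozygotes, each over 4 arrays. Over all genes tested the median SD was 0.19, 0.22 and 0.16. The 95th percentile of the SD over all genes was exceeded by 18, 5 and 22 of the 28 members in the 3 genotypes, against 5% of all genes. The members were chosen with earlier results of these data known. Their spread beside that of all genes is thus a description and not independent evidence.

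Over the 12 arrays the median range of a member was 3.67 log2 units beside 0.78 over all genes tested. A range of more than 3 was seen in 17 members and of less than 1.5 in 6. The difference in spread between heterozygous and the other embryos was not tested.

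**Figure D3:**
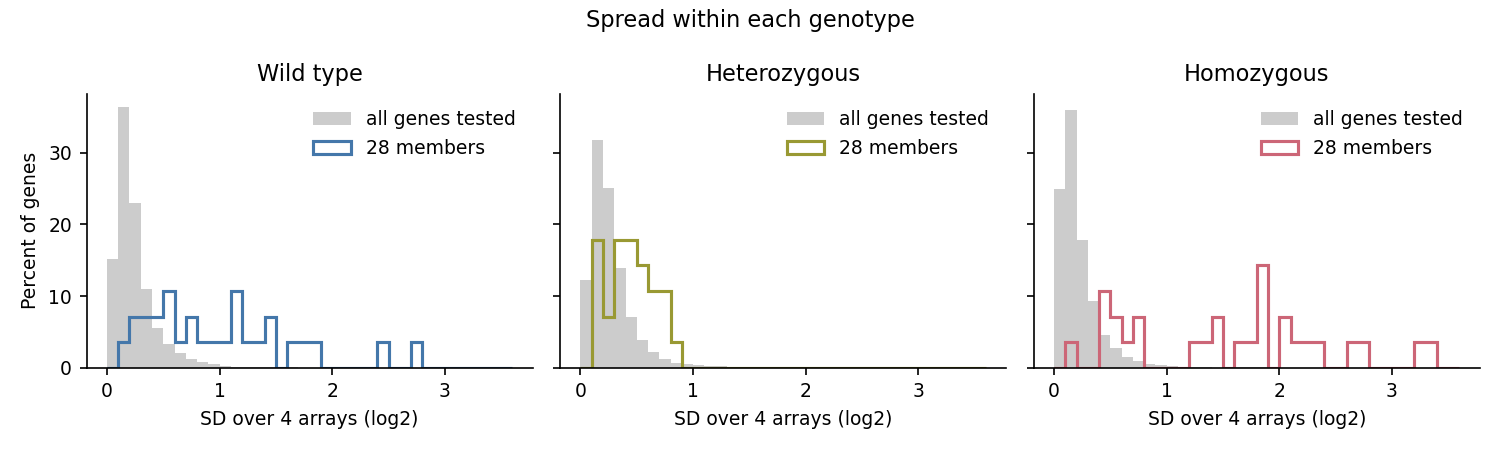
Distribution of the SD over the 4 arrays of each genotype, in log2 units, as percent of genes in bins 0.1 wide, for all 22568 genes tested (grey) and the 28 members (outline). The members extend to SDs of 2.73 in wild-type and 3.40 in homozygous embryos, and only to 0.89 in heterozygous embryos.

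A member score was formed for each array as the mean over the 28 genes of the scaled log2 signal minus the gene's wild-type mean. It was -0.61, 1.15, 0.27 and -0.81 in wild type (SD 0.90), 0.19, 0.60, 0.65 and 0.89 in heterozygotes (SD 0.29) and 2.18, 1.25, -1.05 and -0.56 in homozygotes (SD 1.52). The homozygous embryos thus held both the 2 highest scores and the lowest, and their mean of 0.45 was below that of the heterozygotes, 0.58. Homozygous replicate 1 was the highest array for 23 of 28 members, and it exceeded homozygous replicate 3 in 27. For 24 members the lowest array was among homozygous replicates 3 and 4 and wild-type replicates 1 and 4.

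In every role group homozygous replicate 1 exceeded replicate 3. The score in these 2 embryos was 1.68 and -1.07 for the carriers, 2.81 and -1.27 for the apolipoprotein and lipoprotein genes, 2.35 and -0.97 for the coagulation genes, 2.89 and -1.18 for the uptake and membrane genes and 0.99 and -0.58 for the transcription factors.

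**Figure D4:**
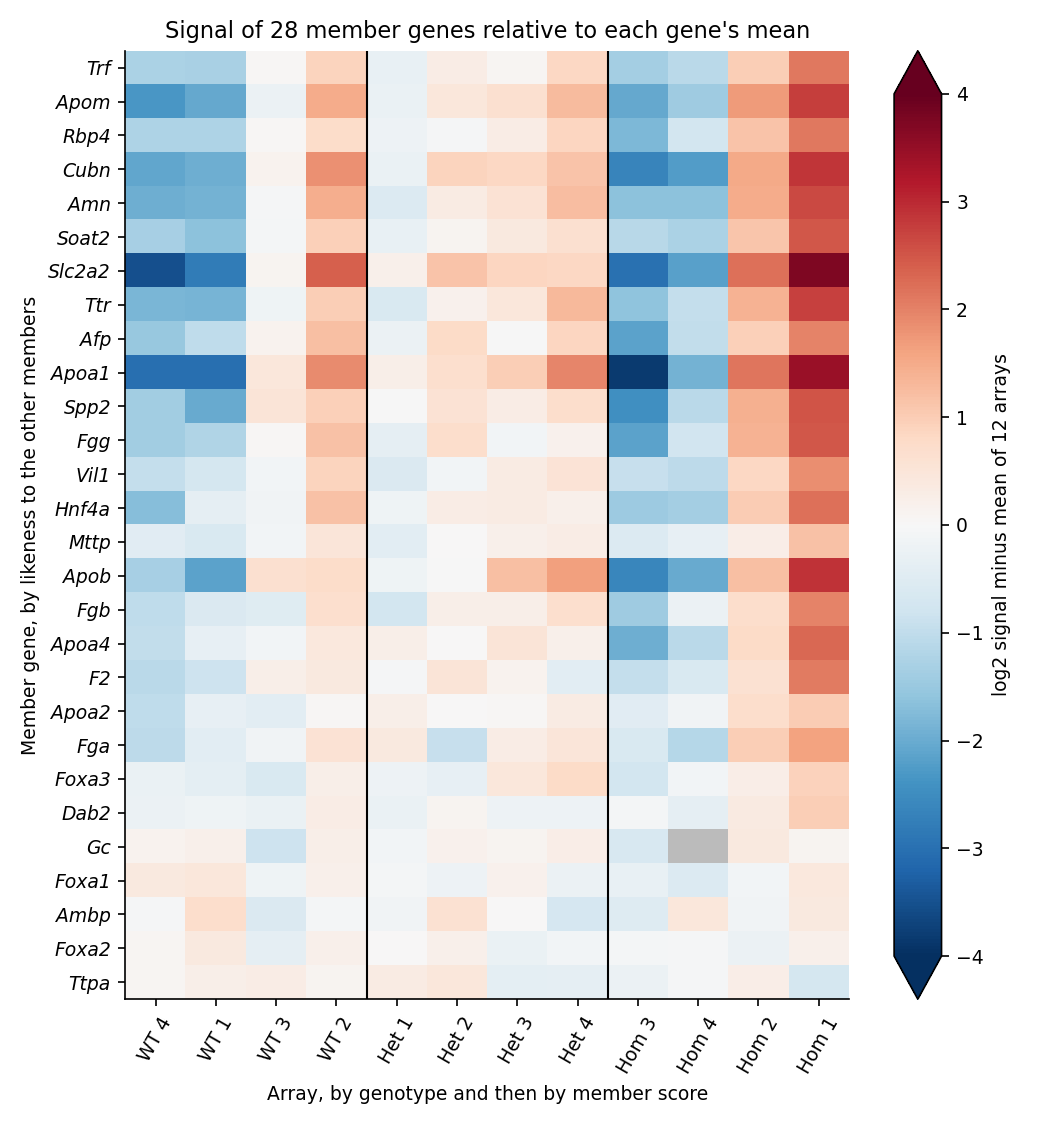
Scaled log2 signal of the 28 tested members (rows, by likeness to the other members) in the 12 embryos (columns, by genotype and then by member score), coloured by the difference from the gene's mean over the arrays; grey marks the Gc spot that was left out. The upper 19 rows share 1 pattern, from low in wild-type replicates 1 and 4 and homozygous replicates 3 and 4 to high in homozygous replicate 1, and the lowest 5 rows do not.

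Each member was also compared with the score of the other 27 by Pearson's r over the arrays, as a description: the genes share the same 12 RNA samples. For 19 members r exceeded 0.9, for 23 it exceeded 0.75, and for 5 it was under 0.5. The closest were Trf (0.990), Apom (0.986), Rbp4 (0.985), Cubn (0.983) and Amn (0.981). Hnf4a, the regulator, had r = 0.959. Without homozygous replicates 1 and 3, the 2 arrays with scores farthest from the median, 15 members exceeded 0.9 over the other 10 arrays. Trf then had 0.986, Cubn 0.984 and Hnf4a 0.922, while Apob (0.889), Apoa4 (0.895), Fgb (0.867) and F2 (0.837) were under 0.9.

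The 5 least like the rest were Gc (0.41, n = 11), Foxa1 (0.21), Ambp (0.00), Foxa2 (-0.04) and Ttpa (-0.34). Foxa3 had r = 0.79, and 0.59 without homozygous replicates 1 and 3. Leaving out those 2 homozygous arrays, Foxa1 had -0.22, Gc 0.21, Ambp -0.46, Foxa2 -0.33 and Ttpa -0.12. Without the 4 arrays with the lowest scores (n = 8), Foxa3 had 0.75 and Foxa1 0.70. On the same 8 arrays Gc had 0.50, Foxa2 0.42, Ambp 0.34 and Ttpa -0.67. The other probes of Fga, Cubn, Gc and Ttpa were well above background on 6, 8, 3 and 6 of 12 arrays, so their ranges are not given. The r of Gc and of Ttpa thus rests on 1 probe each. For Trf the ranges of the 2 probes were 3.46 and 3.94 log2 units, and for Foxa2 0.77 and 0.71.

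The arrays lay on 3 slides, each with all 3 genotypes and its own scan run. The score of homozygous minus wild type was 2.79 on slide 1, 0.54 on slide 2 and 0.00 on slide 3, and that of heterozygous minus wild type was 1.01, -0.06 and 1.69. Homozygous minus heterozygous was 1.78, 0.60 and -1.70. Position on the slide was not balanced, as position 1 held only wild-type arrays (replicates 1, 2 and 4), with scores of -0.61, 1.15 and -0.81. Arrays of 1 slide differed from each other, and slide 3 held 3 of the 4 lowest scores.

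Genes of the tissues that could accompany these cells were read from the same fit, from 9 lists. These lists too were chosen with earlier results of these data known, so their likeness to the member score is a description. The 14 other visceral and yolk sac endoderm genes all were tested, none passed in any comparison, and their mean score followed the members' (r = 0.951 over 12 arrays). Of these, 7 had r above 0.75 with the member score. S100g, a calcium-binding protein, had r = 0.979 and a range of 6.16 log2 units, with -3.48, 0.82, -0.53 and -3.47 in wild type, -0.74, 0.09, -0.28 and 0.56 in heterozygotes and 2.46, 1.02, -3.70 and -1.95 in homozygotes. Rhox5, an X-linked homeobox gene of extraembryonic tissue, had r = 0.971 and a range of 3.85. These are the 2 highest r of the list, whose lowest were Sox17 (-0.05), Sox7 (0.18) and Entpd2 (0.25), and Gata4, an endoderm transcription factor also of heart, had 0.53.

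Over genotypes the visceral endoderm list score ran from -0.35 to 0.52 in wild type, 0.15 to 0.76 in heterozygotes and -0.17 to 1.29 in homozygotes. None of its 14 genes was below background on all arrays. How far remnants of yolk sac or other visceral endoderm in the dissected embryos contribute to the members' spread was not tested.

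The 12 tested genes of the liver bud list other than members varied less, from -0.13 to 0.08 in wild type, 0.08 to 0.41 in heterozygotes and 0.06 to 0.61 in homozygotes (r = 0.764 with the member score). Prox1, a regulator of hepatoblast migration that other tissues also express, had r = -0.07, and Hhex, needed for the liver bud, ranged over 1.25. The definitive gut endoderm list had r = 0.263 (9 tested), with 2 genes above 0.75, Cdh1 (0.832) and Sfrp5 (0.820), and Shh, Sox2 and Nkx2-1 at -0.49, -0.47 and -0.45.

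Embryonic blood genes ran the other way: all 8 tested had r between -0.72 and -0.55 with the member score, and the list had r = -0.653. Their score was 0.49, -0.11, -1.09 and 0.71 in wild type, 0.39, 0.70, -0.07 and 0.11 in heterozygotes and -0.72, -1.02, 0.63 and 0.30 in homozygotes. The embryonic globin Hbb-y gave 7.03, 5.87, 5.42 and 6.99 in wild type, 6.90, 7.15, 6.22 and 6.69 in heterozygotes and 5.14, 4.87, 6.89 and 6.94 in homozygotes. Heterozygous replicate 2 had the highest Hbb-y and wild-type replicate 3 the lowest blood score. Both had member scores in the middle of the arrays (0.60 and 0.27). None of the blood genes passed in any comparison. The part of blood content in the members' values was not tested.

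The trophoblast list had r = 0.711 (6 tested, Tpbpa above background on no array), amnion and extraembryonic mesoderm 0.698 (5 tested), parietal endoderm 0.464 (8 tested), decidua 0.328 (2 tested, Prl8a2 and Cyp11a1 above background on no array) and heart muscle 0.179 (6 tested). In these lists 2 genes passed for homozygous against wild type. Col4a2, a basement membrane collagen, rose by 0.64 ± 0.13 (adjusted p = 0.0387, limma). The other was Pgr, the progesterone receptor, whose probe was well above background on 1 of 4 homozygous arrays. Only in wild type was it well above background throughout, so it entered the test through the group where it was high. Its direction, size and p are therefore not read as a result. Neither Col4a2 nor Pgr followed the member score (r = 0.307 and 0.163).

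**Figure D5:**
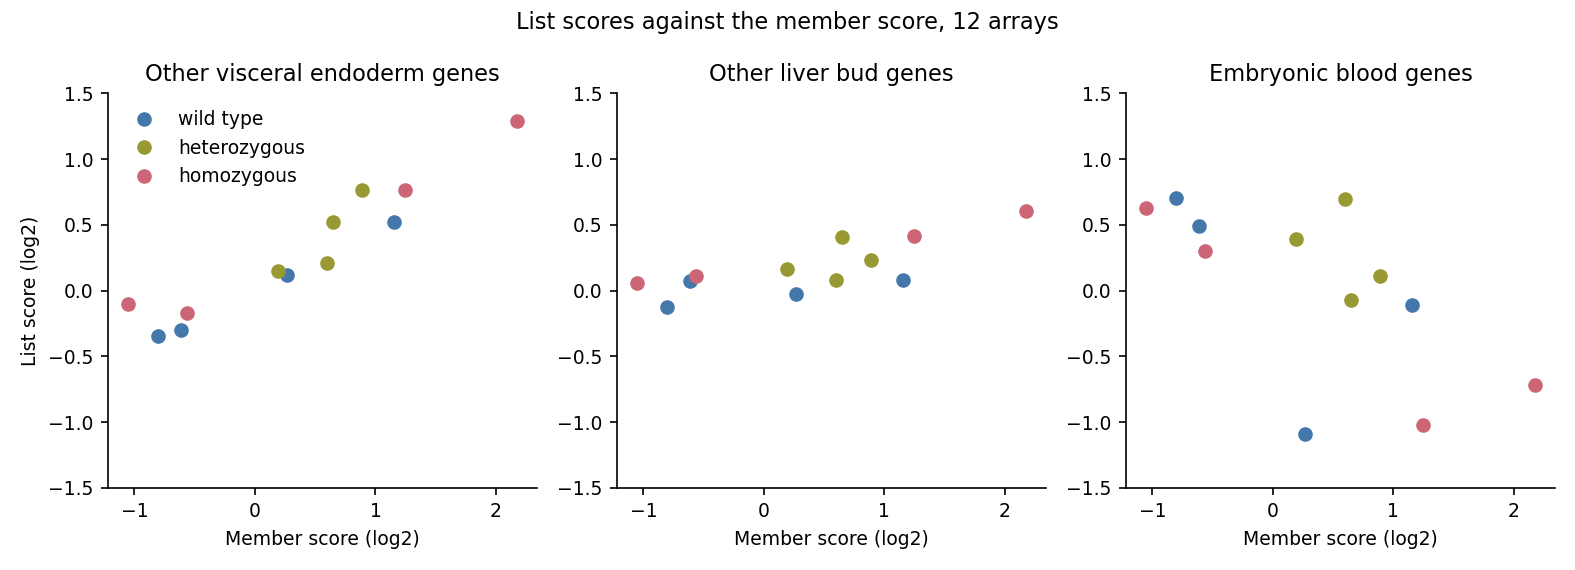
Score of 3 gene lists, in log2 units relative to wild type, against the member score, 1 point per embryo, coloured by genotype. Arrays with a higher member score have higher scores of the other visceral endoderm genes (r = 0.951) and, over a smaller range, of the other liver bud genes (r = 0.764), and lower scores of the embryonic blood genes (r = -0.653).

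The genes whose pattern was most like that of the members were looked for among the 14995 other named genes tested, by r with the member score over the 12 arrays. There were 66 genes with r above 0.9 (0.44%) and 1 with r under -0.9, Rpl9, a ribosomal protein gene (-0.912, range 0.38 log2 units). The 10 highest were Cldn2 (0.992), Fabp2 (0.989), Slc7a9 (0.988), Tfcp2l1 (0.987), Slc28a2 (0.986), Slc13a4 (0.984), Pdzk1 (0.984), Tdh (0.984), Creb3l3 (0.983) and Lgals2 (0.982). They code for a tight junction protein (Cldn2), a fatty acid-binding protein (Fabp2), carriers of amino acids, nucleosides and sulfate (the Slc genes), a scaffold of membrane transporters (Pdzk1), a threonine dehydrogenase (Tdh), a galectin (Lgals2) and transcription factors (Tfcp2l1 and Creb3l3).

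Slc13a4 gave -1.4, 1.27, -0.06 and -1.34 in wild type, -0.57, 0.21, 0.49 and 0.78 in heterozygotes and 2.43, 1.21, -1.33 and -0.88 in homozygotes, and the 12 embryos fell in nearly the order of the member score. Without homozygous replicates 1 and 3 the r of Cldn2 was 0.992 and that of Slc13a4 0.980.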

How the data were processed

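Total RNA of 12 embryos was hybridised with Cy3 to 12 arrays, and the spots were read with Agilent Feature Extraction 10.7.3.1, as the submitters' processing notes state (limma is named there too). The intensity values are the deposited processed signals, corrected for background within each array by that software, per the file headers, and not scaled between arrays. The other deposited columns used are its flags for outlier spots and for signal above background. The series also has a deposited value table, with the same intensities (largest difference 0).

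Control spots (1377) and outlier-flagged spots (171 to 386 per array) were left out. Of 39429 probes, 26049 were named by accession through a RefSeq gene table of GRCm38.p6. The array was designed on an older annotation, so coordinates are given only for RefSeq promoter windows. For each gene the probe with the highest mean was used, provided it was well above background throughout at least 1 genotype. In limma 3.58.1 (R 4.3.3), 1 model with a mean per genotype took in all 12 arrays, with Benjamini-Hochberg adjustment over 22568 genes. The code was tested on simulated data. Replicate numbers follow accession order and only name arrays. Members given with all values are those past the threshold, those with 1 outlying array, and in each role the 2 with the highest signal and the 2 with the largest homozygous difference; other genes are those of a list past the threshold and the 10 most like the member score. S100g, Rhox5, Sox17, Sox7, Entpd2, Gata4, Prox1, Hhex, Cdh1, Sfrp5, Shh, Sox2, Nkx2-1 and Hbb-y were named after their values were seen. The members and lists were chosen with earlier results of these data known. Figures were drawn with matplotlib 3.10.9.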

Additional observations from a re-analysis of the deposited data

Results flagged for a closer look

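In 4 of the 83 sets of 4 arrays checked (a tested member in 1 genotype), 1 array lay far from the other 3. Its gap to its neighbour, as a share of the group's range, was above Dixon's 95% critical value for 4 samples. The member score was checked in the same way and was flagged in no genotype. Chance flags about 1 in 20 groups. Gc was low in wild-type replicate 3, with a gap of 0.894 of the range. Dab2 was high in wild-type replicate 2 (0.852) and in heterozygous replicate 2 (0.845), and Fga was low in heterozygous replicate 2 (0.850).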

How the results depend on the processing

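No member passed under any of the 12 other settings or with any of the 12 arrays left out in turn, and the lowest adjusted p among the named members was 0.138 (Apoa2, homozygous minus wild type, slide as a block). Of 1287 alternative values for single members, 1180 kept the sign of the value reported, and none of the others passed the threshold. The members' median for homozygous minus wild type was 0.44, ran from -0.01 (title number as a replicate block) to 0.86 (slide as a block), and from -0.06 to 0.98 with an array left out. For homozygous minus heterozygous it was -0.06, ran from -0.70 (title number) to 0.17 (slide), was 0.02 with normexp background correction, and ran from -0.62 without homozygous replicate 1 to 0.43 without homozygous replicate 3. For heterozygous minus wild type it stayed positive, from 0.24 to 0.84. The median SD within a genotype stayed between 0.81 and 1.07 in wild type, 0.29 and 0.48 in heterozygotes and 1.27 and 1.81 in homozygotes. The numbers in the titles are not stated to mark a litter, so they were not used as pairs. Deviations were correlated above 0.1 in 4 of 11 same-numbered pairs of different genotypes and in 9 of 37 differently numbered pairs. The median correlation was 0.02 in each. Homozygous replicates 1 and 4 share their number with no other array and do not inform the title number block. The count over all genes for homozygous minus wild type was 305, and 91 with normexp, 19 with title number and 20 with array position as a block, 188 with no filter on dim probes, 544 with array weights, and 112 to 447 with an array left out. Normexp also moved the median of all genes from 0.02 to -0.10. The number of arrays limits the precision, and signal near background limits Alb, Apoh, Ahsg, Apoa1, Apoa4 and Slc2a2.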
